A study of Mus musculus with 9 samples.

Results

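The 42 genes described here are those of white fat storage and of targets of the peroxisome proliferator-activated receptors (PPARs), measured by RNA-seq in back skin of mice with dermatitis. They were listed by gene name, by a rule that sets no threshold on a measured value but with earlier results of these data known, and all 42 of 42 were found among the 55401 genes of the deposited count table. All mice were male C57BL/6 mice of 6 to 8 weeks, and all had 2,4-dinitrochlorobenzene (DNCB) on the back skin, at 1% in 200 µL on day 1 and at 0.5% in 100 µL from day 4 to day 21, which gives an inflammation used as a model of atopic dermatitis. The Model group (4 mice in the labels) was given water, and the treated group (5 mice) was given FJDHF, the Fangji Dihuang formulation, by mouth each day after day 7. The paper had a medium-dose and a high-dose FJDHF group, and states that its RNA-seq used the medium-dose group. Back skin was collected on day 28, and skin of mice without DNCB was not analysed here. The deposited libraries carry codes, of which the 5 that begin with MR were taken as FJDHF and the 4 that begin with MXL as Model, because only FJDHF has 5 samples. A code was not tied to a single mouse, and whether codes such as MR3_4 or MXL12 stand for pooled RNA is unknown, so n counts libraries. Total counts were 74648669 to 79474215 per library.

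White adipocytes lie in a layer below the dermis, and a punch or strip of back skin can hold more or less of it, as it can of the thin skeletal muscle beneath. These cells take up fatty acids released from lipoproteins, esterify them to triglyceride and keep it in a droplet coated with perilipins, from which lipases release it again. The receptor PPARγ, with C/EBPα, switches on most genes of this program in adipocytes, while PPARα acts mainly on genes of fatty acid oxidation. Both PPARs bind DNA as heterodimers with RXR, at direct repeats of AGGTCA with 1 base between the copies. In bulk skin, fewer adipocytes and less RNA of these genes per adipocyte cannot be told apart.

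Because the genes are grouped as PPAR targets, their RefSeq promoter windows (GRCm38.p6) were searched for the PPAR motif. Entries were found for 30 of the 42 genes, with 37 start sites, and the 250 bases before each start were read. Fabp4, Fabp5, Lpl, Angptl4, Slc2a4, Scd1, Car3, Gpd1, Dgat1, Dgat2, Adrb3 and Cpt1b had no entry and were not searched. The 6 letters AGGTCA, on either strand, were present in 10 of 37 windows (27.03%), against 14.02% of all 32851 mouse windows. A pair of AGGTCA copies 1 base apart, on either strand and with at most 2 mismatches in all, was present in 5 of 37 windows (13.51%), against 3.24% of all windows. Those 5 windows belong to Aqp7 (2 overlapping windows, which share a match), Cav1, Cd36 and Plin2. A TATAAA in the last 60 bases was present in 2 of 37 windows (Acacb and Cebpa), against 2.87% of all. A match describes letters, and binding was not measured. One window of each of the 4 genes with a pair is shown 5′ to 3′ on the strand of the gene, to let the motif be read beside the levels. Capitals mark each pair match and each exact AGGTCA or its reverse complement, and a pair match can hold an exact copy. The windows are chr4:41047963-41048212 (minus strand) for Aqp7, with pairs that begin 230 and 101 bases before the start, chr5:17835897-17836146 (minus strand) for Cd36, with a pair 63 bases before it, chr4:86670060-86670309 (minus strand) for Plin2, with a pair 225 bases before it, and chr6:17307390-17307639 (plus strand) for Cav1, with a pair 144 bases before it.
Aqp7: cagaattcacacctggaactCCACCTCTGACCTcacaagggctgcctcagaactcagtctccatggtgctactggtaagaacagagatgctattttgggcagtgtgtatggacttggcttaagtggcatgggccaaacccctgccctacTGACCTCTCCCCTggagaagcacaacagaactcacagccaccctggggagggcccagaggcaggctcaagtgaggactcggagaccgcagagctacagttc
Cd36: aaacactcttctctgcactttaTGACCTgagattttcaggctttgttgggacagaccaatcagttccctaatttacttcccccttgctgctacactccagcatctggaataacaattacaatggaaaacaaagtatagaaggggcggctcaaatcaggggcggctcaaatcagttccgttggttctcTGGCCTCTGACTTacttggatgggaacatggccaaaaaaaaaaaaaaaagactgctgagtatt
Plin2: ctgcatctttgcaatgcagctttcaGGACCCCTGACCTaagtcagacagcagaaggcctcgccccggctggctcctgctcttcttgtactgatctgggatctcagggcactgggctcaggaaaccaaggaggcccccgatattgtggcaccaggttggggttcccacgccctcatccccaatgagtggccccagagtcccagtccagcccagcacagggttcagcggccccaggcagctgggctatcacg
Cav1: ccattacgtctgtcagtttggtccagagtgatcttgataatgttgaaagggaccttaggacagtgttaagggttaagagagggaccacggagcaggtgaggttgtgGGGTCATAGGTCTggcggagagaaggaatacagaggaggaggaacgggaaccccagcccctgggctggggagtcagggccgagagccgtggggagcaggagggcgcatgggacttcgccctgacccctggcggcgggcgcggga

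All 42 genes were expressed in every library, the lowest count being 20 (Cpt1b in MXL12), which lies above the floor of 3 counts. On the FPKM scale, which divides by gene length and so allows genes to be compared, the order of mean levels over the 9 libraries ran from Scd1, the stearoyl-CoA desaturase, at 993 FPKM (range 601 to 1459) to Ppara at 0.906 FPKM (range 0.478 to 1.60). Car3, a carbonic anhydrase that is abundant in adipocytes, came second at 451 FPKM (204 to 878), a range that meets the lower end of that of Scd1. Fabp5 (235), Fabp4 (184), Cav1 (157), Cd36 (147) and Adipoq (123 FPKM) followed, and the ranges of these 5 neighbours overlapped. At the low end stood Adrb3 (1.82), Aqp7 (2.23) and G0s2 (3.08 FPKM). The defining adipocyte genes were thus present in all 9 libraries: Adipoq was at 46.5 FPKM or more, Plin1 at 3.93 or more and Cidec at 12.6 or more. Scd1 is also a gene of sebaceous glands, and Fabp5 of keratinocytes, so the levels of these genes in whole skin are not those of adipocytes alone.

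The comparison of MR with MXL libraries asks whether FJDHF changed the RNA of these genes in DNCB-treated skin. No difference between the groups was found for any of the 42 genes. By edgeR's quasi-likelihood test, 0 of the 42 passed an adjusted p of 0.05 with a 2-fold change, against 0 of all 20817 genes tested (0%), and each of the 42 had an adjusted p of 1. At an unadjusted p under 0.05 there were 0 of the 42 genes, against 326 of all genes (1.57%). DESeq2 called 12 of 34420 genes, none of them among the 42, and had 1 of the 42, Ppara, at an unadjusted p under 0.05. The groups of libraries overlapped in CPM (counts scaled by TMM for the size of each library) for all 42 genes, while 107 of all genes (0.514%) did not overlap. The direction was divided, with 22 genes higher and 20 lower in MR libraries, and the median log2 fold change was 0.02, against −0.03 over all genes, of which 44.1% were higher. In the exact permutation test of the difference in mean log2(CPM + 0.5), over all ways to assign the 9 libraries to groups of 5 and 4 (smallest possible two-sided p = 0.00794), the smallest p among the 42 genes was 0.0794, for Ppara. The p-values below are from this exact test unless edgeR is named, and the log2 fold changes are from edgeR.

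**Figure D1:**
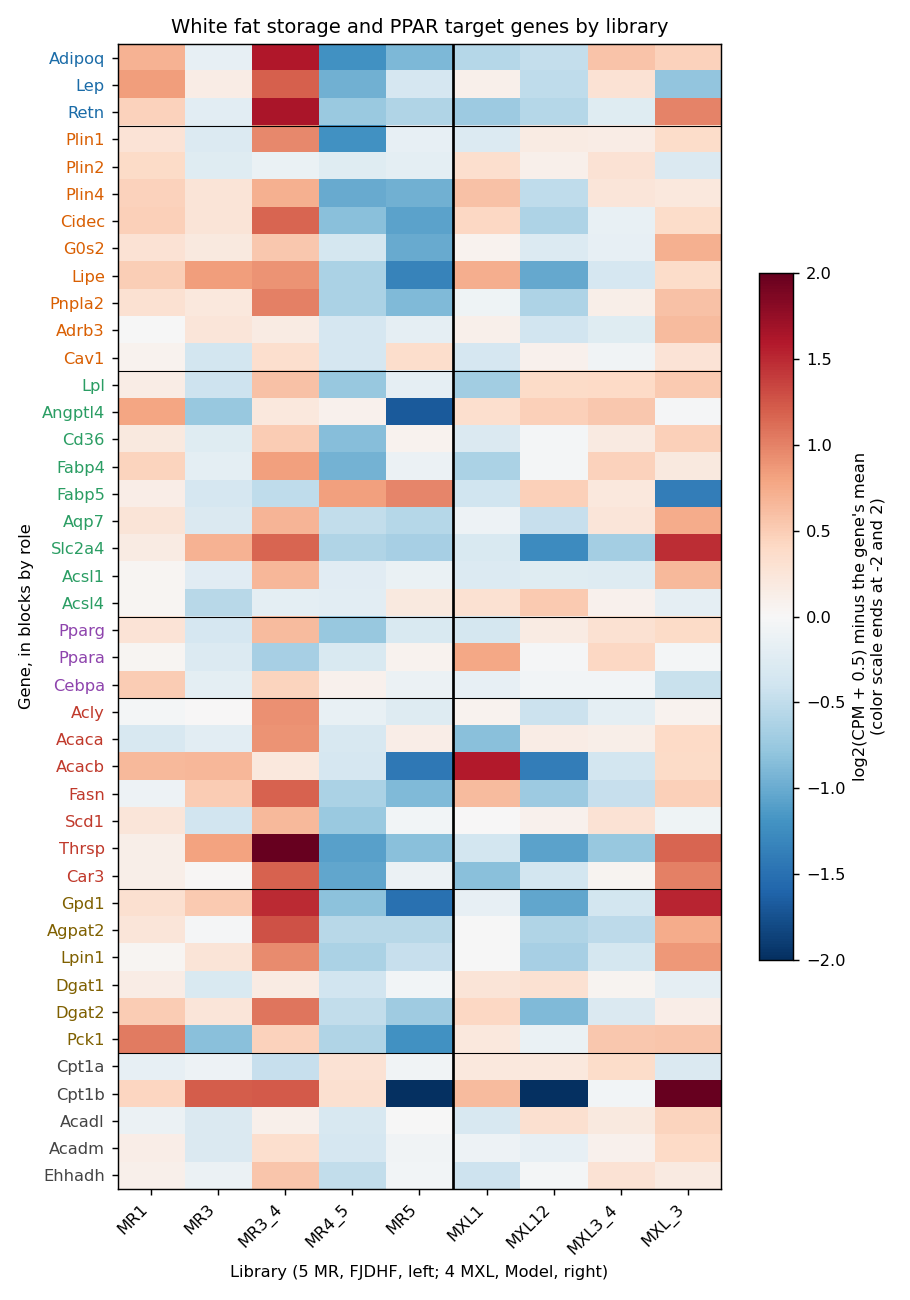
Deviation of log2(CPM + 0.5) from each gene's mean over the 9 libraries, for the 42 genes in rows (blocks and label colors by role) and the libraries in columns, with MR (FJDHF) left of the line and MXL (Model) right of it. The column MR3_4 is high for most rows and MR4_5 low, so the rows vary by library more than by group.

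Among the adipokines, the hormones secreted by fat cells, Adipoq (adiponectin) was at 245, 136, 458, 65.2 and 80.7 CPM in MR1, MR3, MR3_4, MR4_5 and MR5. In MXL1, MXL12, MXL3_4 and MXL_3 it was at 102, 108, 226 and 208 CPM. The highest value and both of the lowest were thus in MR libraries, and the MXL range lay within the MR range. The means were 197 ± 162 CPM (SD, n = 5) and 161 ± 65.1 CPM (SD, n = 4), with a log2 fold change of 0.29 (SE 0.55, edgeR's adjusted p = 1). That fold change was −0.29 without MR3_4 and at most 0.51 with another library left out, and the difference of mean log2(CPM + 0.5), in which 1 high library weighs less, was 0.007 (exact permutation p = 1). Lep (leptin, the satiety hormone that scales with fat mass) was at 71.8, 44.4, 92.2, 20.3 and 31.4 CPM in the MR libraries, in the same order, and at 43.1, 27.8, 49.1 and 22.9 CPM in the MXL libraries. Its log2 fold change was 0.54 (SE 0.43, exact permutation p = 0.429, unadjusted edgeR p = 0.231), with an interval of −0.40 to 1.49 that includes 0. Retn (resistin) ranged from 18.7 CPM in MR4_5 to 99.7 CPM in MR3_4, with a log2 fold change of 0.36 (SE 0.55) that was −0.24 without MR3_4 and 0.91 without MXL_3. The ratio of Lep to Adipoq within a library lay between 0.201 and 0.39 in MR and between 0.11 and 0.423 in MXL libraries.

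Of the 9 genes of the droplet coat and of lipolysis, 4 were higher and 5 lower in MR libraries. Plin1, the perilipin that guards the droplet of adipocytes, was at 52.5, 35.9, 85.0, 18.6 and 38.8 CPM in MR and at 35.8, 49.0, 48.2 and 56.3 CPM in MXL libraries. The means were 46.2 ± 24.9 (SD, n = 5) and 47.3 ± 8.51 CPM (SD, n = 4), so the groups differed in spread and hardly in mean (log2 fold change −0.04, SE 0.36). Cidec, which fuses small droplets to large ones, ranged from 24.0 CPM in MR5 to 114 CPM in MR3_4 (log2 fold change 0.17, SE 0.44). Lipe, the hormone-sensitive lipase, was at 62.5, 79.3, 83.2, 28.5 and 17.2 CPM in MR and at 73.4, 21.5, 35.1 and 57.4 CPM in MXL libraries. Both groups thus held libraries at the low and at the high end, and the log2 fold change was 0.21 (SE 0.49, exact permutation p = 0.849). Pnpla2 (the triglyceride lipase ATGL), its inhibitor G0s2, Plin4 and the β3-adrenergic receptor gene Adrb3 had log2 fold changes between −0.13 and 0.10. Plin2, the perilipin of many cell types, varied little, from 155 to 245 CPM, as did Cav1 (caveolin-1), from 434 to 713 CPM.

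For uptake and fatty acid handling, 4 of 9 genes were higher and 5 lower. Lpl (lipoprotein lipase) was at 892, 604, 1212, 476 and 712 CPM in MR and at 496, 1046, 1057 and 1153 CPM in MXL libraries, where MXL1 stood apart from the other 3. Its log2 fold change was −0.27 (SE 0.32, exact permutation p = 0.468). Angptl4, a PPAR target that inhibits lipoprotein lipase, ran from 13.6 CPM in MR5 to 77.4 CPM in MR1, both MR libraries, while the MXL libraries lay between 43.8 and 64.7 CPM. The fatty acid translocase gene Cd36 and the fatty acid binding protein gene Fabp4 had log2 fold changes of −0.11 (SE 0.27) and 0.07 (SE 0.34). Fabp4 was at 1118, 721, 1451, 427 and 757 CPM in MR and at 533, 804, 1136 and 946 CPM in MXL libraries. Fabp5 behaved differently from Fabp4 across libraries, at 864, 622, 551, 1385 and 1545 CPM in MR and 595, 1092, 912 and 301 CPM in MXL libraries, with MR5 and MR4_5 the highest. Its log2 fold change was 0.45 (SE 0.42, exact permutation p = 0.373). The summed level of 10 keratinocyte markers, in MR5 largely Krt1 and Krt10, was highest in MR4_5 (21750 CPM) and MR5 (19410 CPM) and lowest in MXL_3 (4837 CPM). By the mean of log2(CPM + 0.5) of the same markers, however, MXL1 was highest (10.2), with Fabp5 at 595 CPM, and MR5 stood at 9.08, below MXL1, MR1, MR3, MR3_4, MR4_5 and MXL3_4. The part of these cells in the level of Fabp5 was not tested. Slc2a4, the insulin-responsive glucose transporter GLUT4 of fat and muscle, was at 35.0, 50.8, 70.4, 20.3 and 19.4 CPM in MR and at 24.9, 12.6, 19.2 and 86.8 CPM in MXL libraries. Because MXL_3 was the highest of all, the log2 fold change of 0.13 (SE 0.58, exact permutation p = 0.587) became 1.05 without it, at an unadjusted edgeR p of 0.0469. Acsl4, a long-chain acyl-CoA synthetase that favors arachidonate, was at 50.4 to 85.2 CPM in MR and at 65.4 to 107 CPM in MXL libraries (log2 fold change −0.34, SE 0.20, exact permutation p = 0.143, unadjusted edgeR p = 0.113). Aqp7 (the glycerol channel) and Acsl1 had fold changes of −0.19 and 0.04 on the log2 scale.

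Of the 3 transcription factors, Ppara came closest to a difference. It was at 3.64, 2.83, 2.04, 2.73 and 3.72 CPM in MR and at 6.34, 3.46, 4.83 and 3.39 CPM in MXL libraries, which is 148 to 501 counts. MR1 and MR5 lay above the lowest MXL libraries, MXL_3 and MXL12, and the other 3 MR libraries lay below all 4 MXL libraries. The means were 2.99 ± 0.699 CPM (SD, n = 5) and 4.50 ± 1.39 CPM (SD, n = 4), the log2 fold change −0.59 (SE 0.29, exact permutation p = 0.0794, unadjusted edgeR p = 0.0673, interval −1.23 to 0.05). It was −0.70, at an unadjusted edgeR p under 0.05, without MXL12 and without MXL_3, and between −0.70 and −0.38 whichever library was left out. Cebpa was at 145, 88.8, 140, 109 and 94.1 CPM in MR and at 90.7, 98.1, 98.7 and 75.3 CPM in MXL libraries. Only MR1, MR3_4 and MR4_5 exceeded all MXL libraries, and the log2 fold change was 0.35 (SE 0.19, exact permutation p = 0.159, unadjusted edgeR p = 0.0906, interval −0.07 to 0.76). Pparg, the main regulator of the adipocyte program, was at 44.8, 29.2, 57.5, 21.7 and 29.9 CPM in MR and at 28.9, 41.3, 45.8 and 48.5 CPM in MXL libraries. Its order of libraries within MR was close to that of Adipoq, and its log2 fold change was −0.17 (SE 0.29, exact permutation p = 0.5). An antisense gene overlaps Cebpa, and whether strand was used in counting is not given in the sources used here.

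**Figure D2:**
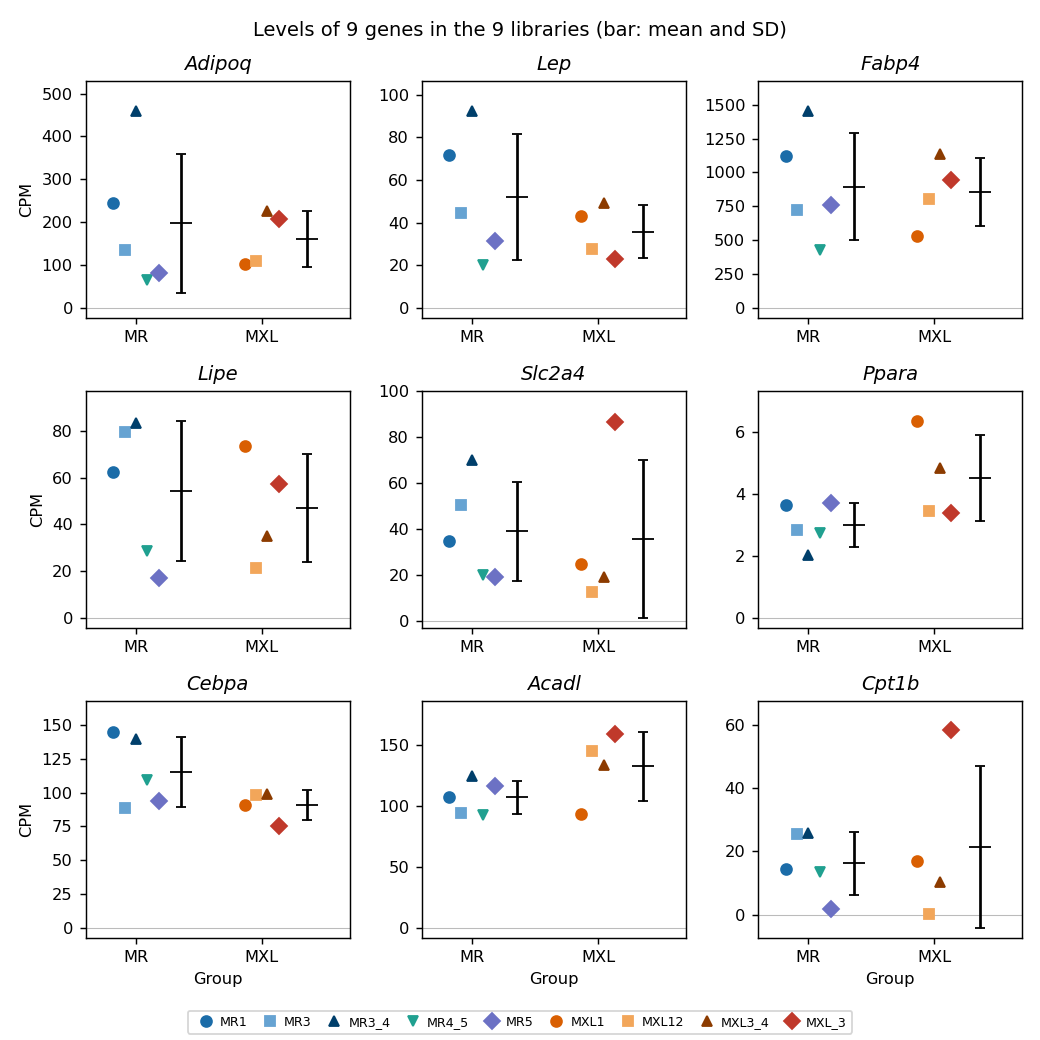
CPM of 9 genes in each of the 5 MR (FJDHF) and 4 MXL (Model) libraries, each library with its own symbol, and the mean and SD of the group as a bar (a lower end under 0 comes from the SD). In every panel the groups overlap, and in the panels of Adipoq, Lep and Fabp4 the top symbol is MR3_4 and the lowest MR4_5.

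Of the 7 genes placed under fatty acid synthesis, which include the carbonic anhydrase gene Car3, 5 were higher and 2 lower. MR3_4 was the highest library for 6 of the 7. Fasn, the fatty acid synthase, was at 252, 385, 613, 175 and 147 CPM in MR and at 418, 162, 196 and 376 CPM in MXL libraries. The log2 fold change was 0.12 (SE 0.45, exact permutation p = 0.944), and it lay between −0.27 (without MR3_4) and 0.36 when 1 library was left out. Scd1 was at 5880, 3831, 7820, 2986 and 4765 CPM in MR and at 4975, 5281, 6054 and 4662 CPM in MXL libraries. The MXL libraries lay close together within the wide MR range (log2 fold change −0.05, SE 0.27). Acacb, the mitochondrial acetyl-CoA carboxylase, was at 82.8, 83.7, 60.7, 41.7 and 19.2 CPM in MR and at 159, 19.7, 40.6 and 68.7 CPM in MXL libraries, with MXL1 the highest. Its log2 fold change of −0.32 (SE 0.57, exact permutation p = 0.881) was 0.42 without MXL1 and as low as −0.63 with another library left out. Car3 was at 1327, 1234, 2758, 594 and 1126 CPM in MR and at 680, 944, 1261 and 2460 CPM in MXL libraries, so that 1 library of each group stood about as high (log2 fold change 0.08, SE 0.46). Thrsp, the thyroid-responsive lipogenic gene, had the largest fold change in size of all 42 genes, 0.63 on the log2 scale, with an SE of 0.68 and values of −0.08 without MR3_4 and 1.37 without MXL_3. Acly and Acaca had log2 fold changes of 0.27 and 0.09.

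In triglyceride assembly, 4 of 6 genes were higher and 2 lower. Dgat2, which adds the last acyl chain, was at 174, 145, 255, 87.0 and 74.6 CPM in MR and at 163, 65.7, 99.9 and 133 CPM in MXL libraries (log2 fold change 0.35, SE 0.38, exact permutation p = 0.524). Dgat1, the other enzyme of this step, varied only from 33.1 to 53.7 CPM (log2 fold change −0.20, SE 0.18). Pck1, which supplies glycerol 3-phosphate in fat and is a PPARγ target there, was at 96.8, 25.9, 64.6, 30.8 and 20.0 CPM in MR and at 54.5, 42.5, 68.3 and 68.8 CPM in MXL libraries. Thus 3 of the 5 MR libraries lay below all MXL libraries and 1 above, with a log2 fold change of −0.30 (SE 0.44, exact permutation p = 0.31). Gpd1, Agpat2 and Lpin1 had log2 fold changes between 0.03 and 0.25, which were −0.48, −0.19 and −0.24 without MR3_4 and 0.84, 0.61 and 0.46 without MXL_3. Gpd1 reached 220 CPM in MR3_4 and 225 CPM in MXL_3, against 27.4 to 112 CPM in the other 7 libraries.

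Of the 5 genes of fatty acid oxidation, 4 were lower and 1, Ehhadh, had a log2 fold change of 0.01. Acadl, the long-chain acyl-CoA dehydrogenase, was at 107, 94.6, 124, 92.7 and 116 CPM in MR and at 93.0, 145, 133 and 159 CPM in MXL libraries. All MXL libraries but MXL1 exceeded the MR libraries, with a log2 fold change of −0.31 (SE 0.18, exact permutation p = 0.135, unadjusted edgeR p = 0.112). Without MXL1, which lay among the lowest, it was −0.45, at an unadjusted edgeR p of 0.0166. Cpt1b, the carnitine palmitoyltransferase of muscle, had the widest range of the 42 genes, at 14.6, 25.4, 25.7, 13.5 and 1.76 CPM in MR and 16.8, 0.265, 10.2 and 58.2 CPM in MXL libraries. MXL_3 and MXL12, the libraries with the highest and lowest skeletal muscle marker score, held the highest and the lowest level. The sign of its difference was not stable, since the log2 fold change of −0.40 (SE 1.03) was 0.83 without MXL_3 and as low as −0.81 with another library left out, and the difference of mean log2(CPM + 0.5) was 0.404. Another gene model overlaps Cpt1b on the same strand. Cpt1a and Acadm had log2 fold changes of −0.23 and −0.10.

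**Figure D3:**
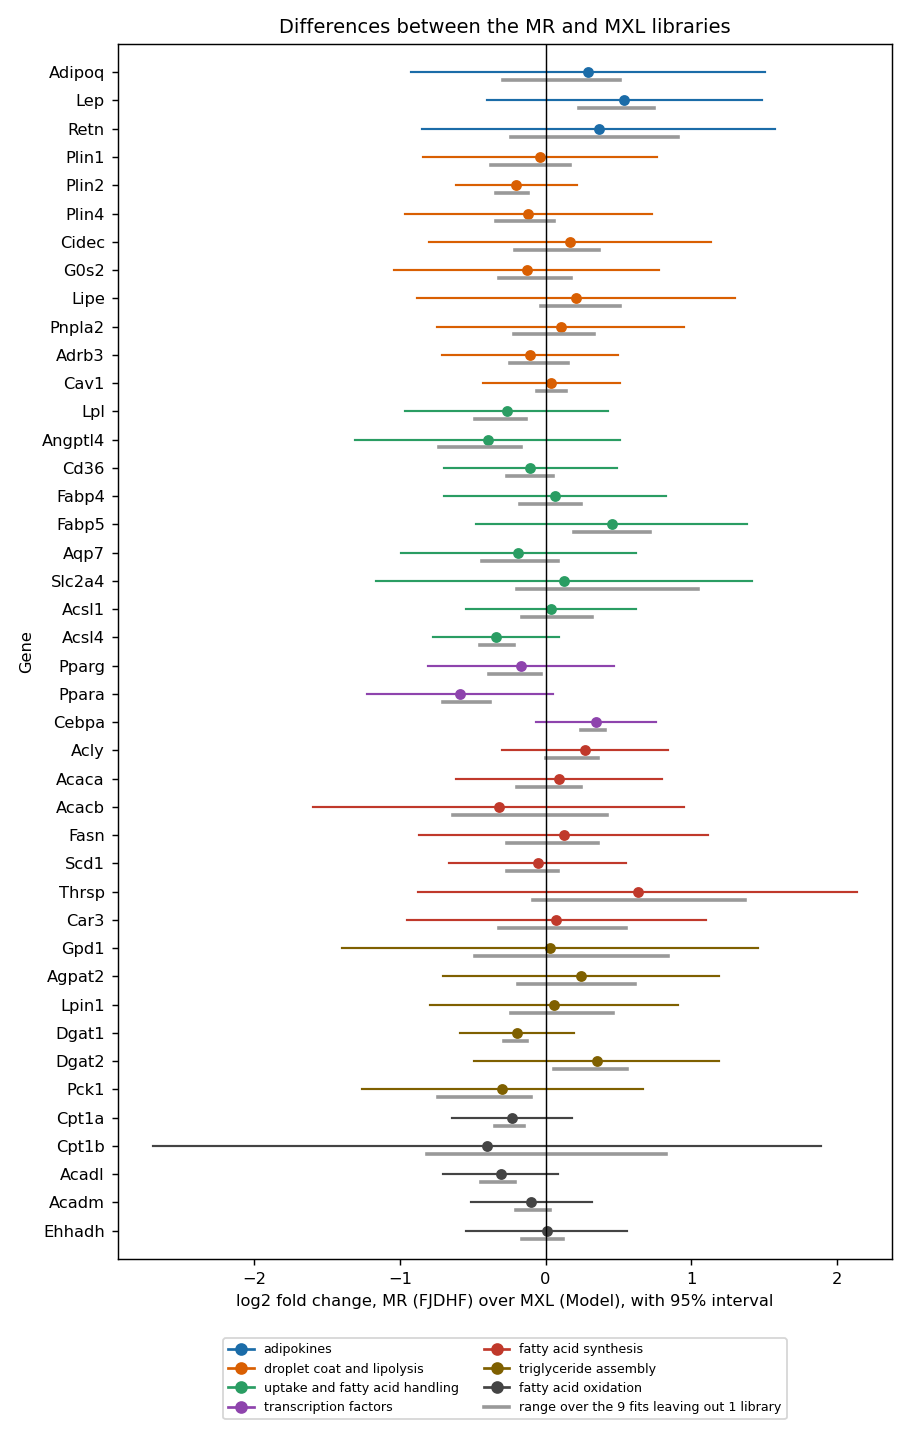
Log2 fold change of MR (FJDHF) over MXL (Model) libraries from edgeR with its 95% interval for each of the 42 genes, colored by role, and below each the range over the 9 fits that leave out 1 library (grey). Every interval includes 0, and the interval of Cebpa, −0.07 to 0.76, and that of Ppara, −1.23 to 0.05, reach least far past it.

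Most of the variation of these genes lay between libraries of the same group. The median SD of log2(CPM + 0.5) within groups was 0.609 for the 42 genes and 0.355 for all tested genes, and the median ratio of the highest to the lowest library was 3.38 and 2.87. Of all tested genes, 43.1% had a ratio above 3.38, so by this measure the 42 genes were not far from the middle of all genes. MR3_4 was the highest library for 23 of the 42 genes, against 8.52% of all genes, and MXL_3 was for 8, against 15.5% of all genes. MR4_5 was the lowest for 16, against 9.22% of all genes, MR5 for 10, against 15%, and MXL12 for 7, against 14.1%. The counts of MXL_3 and MXL12 were thus near those of all genes. The summed level of the 42 genes was 20810 CPM in MR3_4 and 8979 CPM in MR4_5, and the MXL libraries lay between them, at 11530 to 15000 CPM. Scd1 alone gave 7820 CPM of the sum in MR3_4. By the mean of log2(CPM + 0.5) of the 42 genes, MR3_4 was highest too (7.12). By that mean MR4_5 (5.94) and MR5 (5.96) lay below all MXL libraries (6.08 to 6.83), while by the sum MR5 (12540 CPM) lay within their range. Both extremes were thus FJDHF libraries. As the group difference leaned on 1 library, its direction did too: without MR3_4, 6 genes were higher and 36 lower (median log2 fold change −0.24), without MXL_3, 29 and 13 (0.17), without MXL12, 12 and 30 (−0.10), without MXL1, 16 and 26 (−0.10), and without MR4_5, 26 and 16 (0.12). At least 1 of these 9 fits changed the sign for 27 of the 42 genes, and the other 15 kept theirs.

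**Figure D4:**
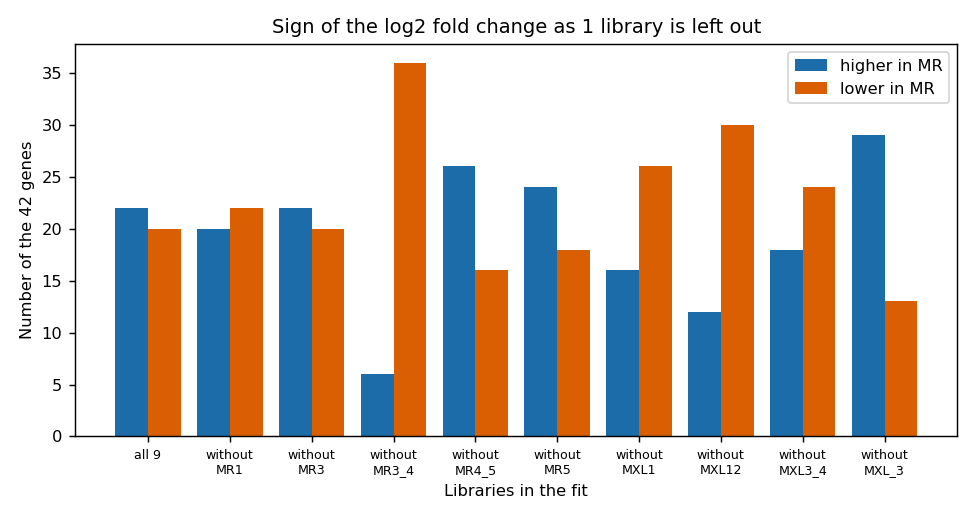
Number of the 42 genes with a higher (blue) or lower (orange) fitted level in MR than in MXL libraries, for all 9 libraries and with each library left out in turn. The division of 22 to 20 with all libraries went to 6 and 36 without MR3_4 and to 29 and 13 without MXL_3.

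The genes were also compared across the 9 libraries with Adipoq, on log2(CPM + 0.5), by 41 correlations with exact permutation p-values adjusted over the 41. The correlation was positive for 37 of 41 genes, with a median Pearson r of 0.727, against 0.035 over all tested genes. An r above 0.8 was found for 12 of 41 genes (29.3%), against 1.14% of all genes, and 23 had an adjusted p under 0.05, while 9 did by Spearman's rho. Fabp4 (r = 0.912, rho = 0.9), Pnpla2 (r = 0.905, rho = 0.883), Ehhadh (r = 0.9, rho = 0.867), Pparg (r = 0.898, rho = 0.85), Retn (r = 0.891, rho = 0.9) and Aqp7 (r = 0.884, rho = 0.833) followed Adipoq most closely, with adjusted permutation p-values of 0.0105 to 0.0124 for r and 0.0277 to 0.0424 for rho. With the group means subtracted, which pools both groups, 23 of 41 passed as well. The relation was not tested within a single group, and both extreme libraries of Adipoq were MR libraries. Without MR3_4 and MR4_5, the libraries farthest from the median of Adipoq, 36 of 41 stayed positive with a median r of 0.465, but 0 passed (5 at an unadjusted p under 0.05, smallest adjusted p = 0.299 by the exact permutation test over 7 libraries). The relation was therefore not shown without those 2 libraries. They are the ends of Adipoq, and leaving them out also narrows its range, so the fall in r cannot show that the relation depends on them. On log2(FPKM + 0.5), 13 of 41 passed.

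Some genes had a weak or a negative correlation with Adipoq. Of the genes whose promoter windows are printed above, Aqp7 and Cd36 had r = 0.884 and 0.813, and Cav1 and Plin2 had r = 0.466 and 0.174 (adjusted permutation p = 0.269 and 0.65), and the difference between these coefficients was not tested. Negative values were found for Cpt1a (r = −0.621), the liver-type carnitine palmitoyltransferase that many skin cells express, Fabp5 (−0.576), Ppara (−0.296) and Acsl4 (−0.247), none of which passed. Cebpa, with r = 0.452 and rho = 0.35, did not pass either. The shared points of these relations are the same 9 libraries, and the amount of fat in each piece of skin was not measured.

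A score of 12 skeletal muscle markers (the mean of log2(CPM + 0.5)) ranged from 5.28 in MXL12 to 10.3 in MXL_3, with 9.45 in MR3_4 and 9.37 in MR3. Adipoq itself had r = 0.545 with it (rho = 0.483, exact permutation p = 0.129). Of the 42 genes, 34 were positively correlated with this score, with a median r of 0.561, against 0.011 over all tested genes. An r above 0.8 was found for 8 of the 42 (19%), against 3.66% of all genes, and 9 passed an adjusted permutation p of 0.05. They were Slc2a4 (r = 0.956, rho = 0.933), Adrb3 (0.936 and 0.983), Lpin1 (0.922 and 0.95), Thrsp (0.873 and 0.933), Gpd1 (0.865 and 0.883), Cpt1b (0.863 and 0.933), Fasn (0.803 and 0.783), Agpat2 (0.801 and 0.867) and, in the opposite direction, Fabp5 (−0.822 and −0.867). Their adjusted permutation p-values were 0.00231 to 0.0437 for r and 0.00208 to 0.0603 for rho, the largest being those of Fasn. Slc2a4, Cpt1b, Lpin1 and Gpd1 are also expressed by skeletal muscle, whereas Adrb3, Thrsp and Agpat2 are better known from fat. Without MXL12 and MXL_3, the libraries farthest from the median score, Adrb3, Slc2a4, Thrsp and Lpin1 passed (r = 0.942, 0.933, 0.933 and 0.928). With the score as a covariate in the fit, 12 of the 42 genes were higher and 30 lower in MR libraries, and 1, Fabp5, reached an unadjusted p under 0.05, with a log2 fold change of 0.67. Pparg, Fabp4, Plin1, Lep, Lpl, Scd1 and Ehhadh passed with Adipoq and had r between 0.150 and 0.394 with the muscle score, without passing. This contrast was weaker without the 2 libraries farthest from each median. These genes then had r of 0.323 to 0.694 with the score and 0.405 to 0.81 with Adipoq. For Lep the order was reversed (0.694 and 0.405), and for Scd1 the values were close (0.422 and 0.432). Whether the coefficients with Adipoq and with the score differ was not tested.

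**Figure D5:**
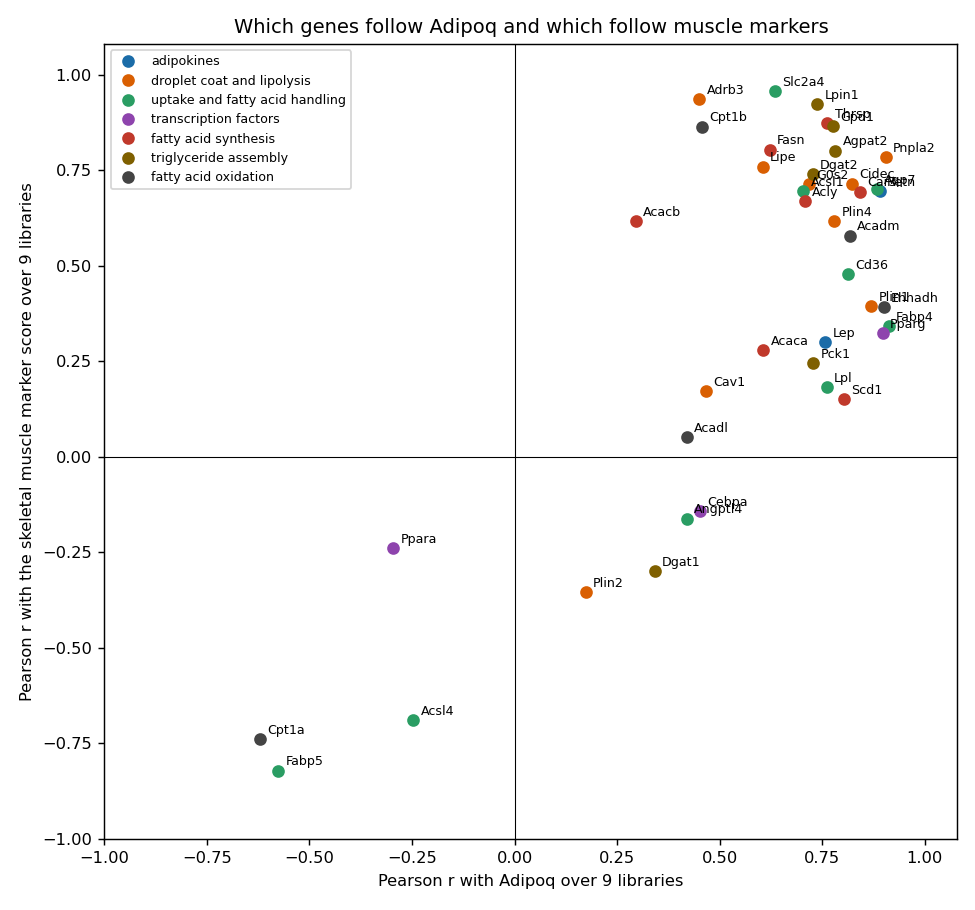
Pearson r over the 9 libraries of each of 41 genes with Adipoq (horizontal) and with the skeletal muscle marker score (vertical), colored by role. Pparg, Fabp4, Plin1 and Ehhadh are near 0.9 on the horizontal axis and under 0.4 on the vertical, Slc2a4 and Adrb3 are above 0.9 on the vertical axis, and Cpt1a and Fabp5 are negative on both.

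The libraries also differed in the levels of GC-rich against GC-poor genes, in both groups. All genes were put in 5 classes of equal size by transcript GC content, and the median deviation of the class with the highest GC minus that of the lowest was 0.59 in MR3 and 0.73 in MXL1, and −0.77 in MR5, −0.75 in MXL12 and −0.39 in MXL3_4 (log2). Acacb, a transcript of 56.7% GC, was highest in MXL1 and MR3 and lowest in MR5 and MXL12, and Lipe (56.5% GC) had the same libraries at or near its ends. Cd36 (38.7% GC) and Fabp4 (41.5% GC) did not have this order, and neither did the GC-rich Cebpa (61.0%), Plin1 (56.9%) and Scd1 (56.7%). As a description across the 42 genes, which are not independent, GC content had a Spearman rho of 0.651 with how strongly a gene followed this difference between libraries. The genes that passed with the muscle score followed it too, with r from 0.515 (Agpat2) to 0.792 (Cpt1b), and −0.614 for Fabp5. Acacb (0.965) and Lipe (0.901) followed it most closely and had not passed with that score. The parts of muscle and of GC content in these levels were not tested apart. With library-specific offsets for GC content, 0 of the 42 genes reached an unadjusted p under 0.05, and 20 were higher and 22 lower.

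Other genes of the same pathways, from fixed lists, did not pass the adjusted test either. Of 17 further white adipocyte genes tested, 8 were higher and 9 lower in MR libraries, and 0 had an unadjusted p under 0.05. Without MR3_4, 3 were higher and 14 lower. The ends of this list were Cfd (adipsin) and Nat8l, with log2 fold changes of 0.58 and 0.59, and Acvr1c and Mgll, with −0.40 and −0.39. Of 18 further PPAR target genes of fatty acid oxidation, 1 was higher and 17 were lower, with a median log2 fold change of −0.16. Again 0 had an unadjusted p under 0.05. The higher gene was Cyp4a10 (0.78, SE 0.97), which lay near the floor, at 0 CPM in MXL_3 and at most 0.869 CPM elsewhere. Over all genes, 44.1% were higher. Pdk4, which spares glucose for fat burning, had a log2 fold change of −0.83 and Decr1 of −0.37. The balance of this list was less uneven without MXL1 (7 higher, 11 lower) and without MR5 (5 and 13). Among 45 tested genes of the KEGG PPAR signaling pathway outside the 42, 15 were higher and 30 lower, and 1 had an unadjusted p under 0.05. That gene was Ucp1, the uncoupling protein of brown fat, at 31.3 CPM in MXL_3 and at 0.459 to 1.14 CPM in the other 8 libraries. Its log2 fold change of −3.52 was −0.24 without MXL_3.

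Markers of other cells in back skin differed between libraries as well. Keratinocyte markers summed to 11770 to 21750 CPM in MR and 4837 to 17970 CPM in MXL libraries, and Krt1 and Krt10, the keratins of the suprabasal layers, were higher in MR libraries at an unadjusted p under 0.05 (log2 fold changes 1.48 and 1.23, adjusted p = 1). Over all genes, 44.1% were higher in MR libraries. All 10 macrophage markers were higher, with log2 fold changes from 0.01 (Mrc1) to 0.53 (C1qc), and so were 8 of 10 keratinocyte markers. All 8 neutrophil markers were lower, as were 9 of 10 progenitor and fibroblast markers and 10 of 11 brown adipocyte markers. Lower too were 8 of 11 sebocyte markers, 8 of 12 skeletal muscle markers and 7 of 10 endothelial markers. Macrophage markers summed to 1435 to 3351 and 1307 to 3465 CPM, endothelial markers to 455 to 722 and 408 to 916 CPM, and sebocyte markers to 974 to 1990 and 668 to 3046 CPM. Progenitor and fibroblast markers summed to 13990 to 25580 and 19660 to 34030 CPM. Neutrophil markers summed to 85.5 to 179 and 77.3 to 702 CPM, the high end being MXL12, while the other MXL libraries lay at 77.3 to 136 CPM. Brown adipocyte markers summed to 179 to 362 and 258 to 423 CPM, with Elovl3 the largest part in every library (79.5 to 312 CPM). MXL_3, with Ucp1 at 31.3 CPM, had the lowest such sum of the MXL libraries. Its mean of log2(CPM + 0.5) of these markers was the highest of all, 3.69 against 2.38 to 2.86. Elovl3 was lowest in MR3_4 (79.5 CPM) and MXL_3 (91.3 CPM), as was the sebocyte sum (974 and 668 CPM). Elovl3 was highest in MXL3_4 and MXL12 (312 and 289 CPM), with sebocyte sums of 1889 and 1178 CPM. Which cells gave the RNA of Elovl3 was not tested, so the brown adipocyte sum cannot be read as an amount of brown fat. Mc5r of sebocytes and Col3a1 of fibroblasts were lower in MR libraries at an unadjusted p under 0.05 (−0.78 and −0.57). Their part in the values of the 42 genes was not tested. None of these marker lists had a gene with an adjusted p under 0.05.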

How the data were processed

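RNA-seq of back skin was analysed in 9 libraries, 5 taken as FJDHF and 4 as Model by the prefix of the column code and the number of columns. The authors deposited whole-number read counts per gene without normalization, for 55401 genes, and FPKM values for 34637 genes with names and positions. 9 further per-library columns repeat the counts and were not used. The submitters' processing notes name mm10, HISAT, StringTie and DESeq2, with no versions, and strand use in counting is not given in the sources used here. Libraries were poly(A) selected and made by a dUTP method.

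Tests used edgeR 4.0.16 under R 4.3.3. Low counts were removed with filterByExpr and libraries scaled by TMM, and the quasi-likelihood p-values were adjusted by Benjamini-Hochberg over the 20817 genes left. A gene was called at an adjusted p under 0.05 and at least a 2-fold change. Alternatives used DESeq2 1.42.0 and limma 3.58.1 on log2(FPKM + 1) and log2(FPKM + 0.1). Levels are TMM-scaled CPM. Single genes and correlations were tested by exact permutation on log2(CPM + 0.5), two-sided, in Python 3.11.15. Correlations were adjusted over the genes of each family (41 and 42). At these depths the floor of 3 counts is 0.0375 to 0.0415 CPM, which covers counting error only. The fit was tested on simulated data with 200 changed genes, whose changes were larger than any fitted for the 42 genes. Whether differences of the size fitted here could be found was not tested. GC content and overlaps came from GENCODE M21, in which 33 of the 42 genes had the deposited position. Of the 42 genes, 7 overlap an exon of a gene on the opposite strand (Acsl1, Adrb3, Agpat2, Cebpa, Gpd1, Lipe and Plin4) and 1 on the same strand (Cpt1b). A gene model named as a copy of Fabp5 exists, so reads of Fabp5 may be shared with it. Promoters came from RefSeq.

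The 42 genes and all lists were chosen with earlier results of these data known. Named genes were the 5 with the smallest edgeR p, any whose groups did not overlap (there were none), and a fixed set by role, and others are given by range or fold change. Genes named from other lists, Thrsp, Angptl4 and Gpd1 were chosen after their values were seen. The labels number separate mice, but columns were not matched to them, and where codes mark pooled RNA the spread between libraries is not that between mice.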

Additional observations from a re-analysis of the deposited data

Results flagged for a closer look

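Within each group, the library farthest from its neighbours was compared with Dixon's critical value on log2(CPM + 0.5), for 42 genes in 2 groups. Of these 84 tests, 5 exceeded it, where chance gives about 1 in 20 (4.2). Plin2 was high in MR1 (ratio of the gap to the range 0.826), at 245 CPM against 159 to 171 CPM in the other 4 MR libraries. Acly was high in MR3_4 (ratio 0.769), at 722 CPM against 317 to 384 CPM. Cpt1b was low in MR5 (ratio 0.744), at 1.76 CPM against 13.5 to 25.7 CPM. Lpl was low in MXL1 (ratio 0.885), at 496 CPM against 1046 to 1153 CPM. Acsl1 was high in MXL_3 (ratio 0.956), at 367 CPM against 193 to 198 CPM in the other 3 MXL libraries. The 5 cases fell in 5 different libraries, and none of the 5 genes passed the test between the groups.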

How the results depend on the processing

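None of the 42 genes was called under any alternative run. The count of all genes called, 0, was 12 with DESeq2's Wald test and 0 otherwise. The count of the 42 genes at an unadjusted p under 0.05, 0, was 1 with DESeq2 (Ppara), 1 with the skeletal muscle covariate (Fabp5) and 0 to 3 when 1 library was left out (Slc2a4, Acsl4 and Ppara without MXL_3, Acadl without MXL1, Ppara without MXL12). The exact permutation test gave 0, and 0 to 1 when 1 library was left out (1 without MXL1). The median log2 fold change of the 42 genes lay between −0.24 and 0.17 when 1 library was left out. Correlations with Adipoq passed for 23 genes, for 0 without the 2 farthest libraries and for 13 on FPKM, and correlations with the muscle score for 9 and, without the 2 farthest, for 4. Over all genes, 326 at an unadjusted p under 0.05 became 905 with no filter on low counts and 734 without MXL1. The fit with a replicate block by code number (6 libraries) gave 1 of the 42 genes (Lep, log2 fold change 0.87), a median of 0.16 and 256 genes, and the same 6 libraries without the block, an alternative chosen after seeing the data, gave 1 (Lep, 0.85) and 292 genes. The pairs' deviations correlated at 0.225, 0.118 and −0.219, so the numbers were not taken as pairs. With Adipoq as a covariate and with GC correction, both also chosen after seeing the data, 0 of the 42 genes had an unadjusted p under 0.05. Of the values for single genes, 816 stayed within 1 SE of the reported value, 15 moved further and 9 gained an unadjusted p under 0.05.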
